A study of Drosophila melanogaster with 3 samples.

Results

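Larval brain cells of Drosophila melanogaster that expressed a Rock-nanobody fusion in neural stem cells were compared with cells of the control genotype. The comparison was made gene by gene, over every called cell and over a gated part of them, called neurons here. The work concerns how the unequal size of daughter cells relates to their later division and fate. Type 1 neuroblasts and their lineages were sorted by FACS from larvae 72 to 96 h after egg laying, grown at 25 °C, and sequenced with the 10x Genomics GEM-X 3′ v4 chemistry, which counts unique molecular identifiers (UMIs, 1 per captured RNA molecule). Each genotype was represented by 1 library, and all libraries carry the same batch in the labels.

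Control larvae carried Sqh::GFP on X, a tagged regulatory light chain of non-muscle myosin, with worGal4 and UAS-mCherry::Jupiter on 3, so that the neuroblast driver worniu expressed a red microtubule label. Nanobody larvae carried those alleles and, on 3, UAS-ALDInscuteable RockKinase domain-VhhGFP4-HA. This fusion joins a part of the apical protein Inscuteable, the kinase domain of Rock and a GFP-binding nanobody, and it was driven by the same worGal4. Another genotype, mud, carried the allele mud4 on X together with the control alleles and had its own library. Its values are given only beside those of the other genotypes, because a comparison of mud would use the same control library. Control has no second library, so no difference below could be compared with a spread between replicates, and no p-value is given. The number of larvae pooled in a library is not given in the sources used here.

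Barcodes with 1000 or more UMIs and 500 or more genes were called cells, unless over 20% of their UMIs lay on the 13 mitochondrially encoded genes. This left 14852 control cells and 14415 nanobody cells, which are 29267 of the 44461 called cells of the series. With a minimum of 500 UMIs alone, 16677 and 16125 barcodes would have been kept. The control cells held 108519041 UMIs (median 6528.5 per cell) and the nanobody cells 113544220 (median 6863), while the median share of mitochondrial UMIs was 0.973% and 1.3%. The 2 libraries shared 59 called barcodes. The population called neurons below was defined as cells with at least 1 UMI of nSyb and no UMI of the neuroblast gene dpn. nSyb encodes the synaptic vesicle protein neuronal Synaptobrevin. This population held 4955 control cells (33.4%) and 5132 nanobody cells (35.6%), with medians of 7905 and 8696 UMIs. Deeper cells pass this gate more easily: after every cell was thinned to 1000 UMIs, 16.4% (95% binomial interval 15.8 to 17.0) of control cells and 15.8% (15.2 to 16.4) of nanobody cells passed it. Cells with neither an nSyb nor a dpn UMI numbered 9440 and 8429, and cells with dpn and without nSyb 408 and 768.

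A type 1 neuroblast divides asymmetrically. Apical proteins such as Inscuteable, Bazooka and aPKC set the polarity axis, the basal determinants Prospero, Brat and Numb pass to the smaller ganglion mother cell (GMC), and the kinase Rok activates myosin through its regulatory light chain at the cell cortex. The GMC then divides into cells that become neurons or glia. The label of the sort, neuroblasts and neurons, was met by the neuronal RNA-binding protein gene elav, at 2198 CPM (UMIs of the gene per 1000000 UMIs of the library) in control and 1927 in nanobody. At least 1 elav UMI was found in 97.0% of control and 97.1% of nanobody cells, or 80.9% and 79.0% after thinning. The nSyb gate thus took only part of the cells with elav, and most cells outside it also had an elav UMI. The muscle markers Act57B and Tm2 stood below 1 CPM in both libraries.

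Most genes had nearly the same level in both libraries. For each gene, UMIs were summed over cells and given as CPM, and the log2 ratio of nanobody over control was taken after adding 5 CPM to both, which understates the difference of low genes. Over the 2890 genes with at least 50 CPM in 1 of the 2 libraries the median log2 ratio was -0.01, with 5th and 95th percentiles of -0.28 and 0.31. On that scale 5 genes, or 0.173%, were at least 2-fold higher in the nanobody library, and 2, or 0.0692%, were at least 2-fold lower. In neurons 4 of 2825 genes (0.142%) were at least 2-fold higher and 6 (0.212%) at least 2-fold lower. Intervals printed with levels and ratios are exact 95% Poisson intervals of the summed UMIs. They cover counting error only and leave out the sampling of cells, so for a transcript held by few cells they are too narrow. A sum over cells cannot tell fewer cells with a transcript from less of it per cell.

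**Figure D1:**
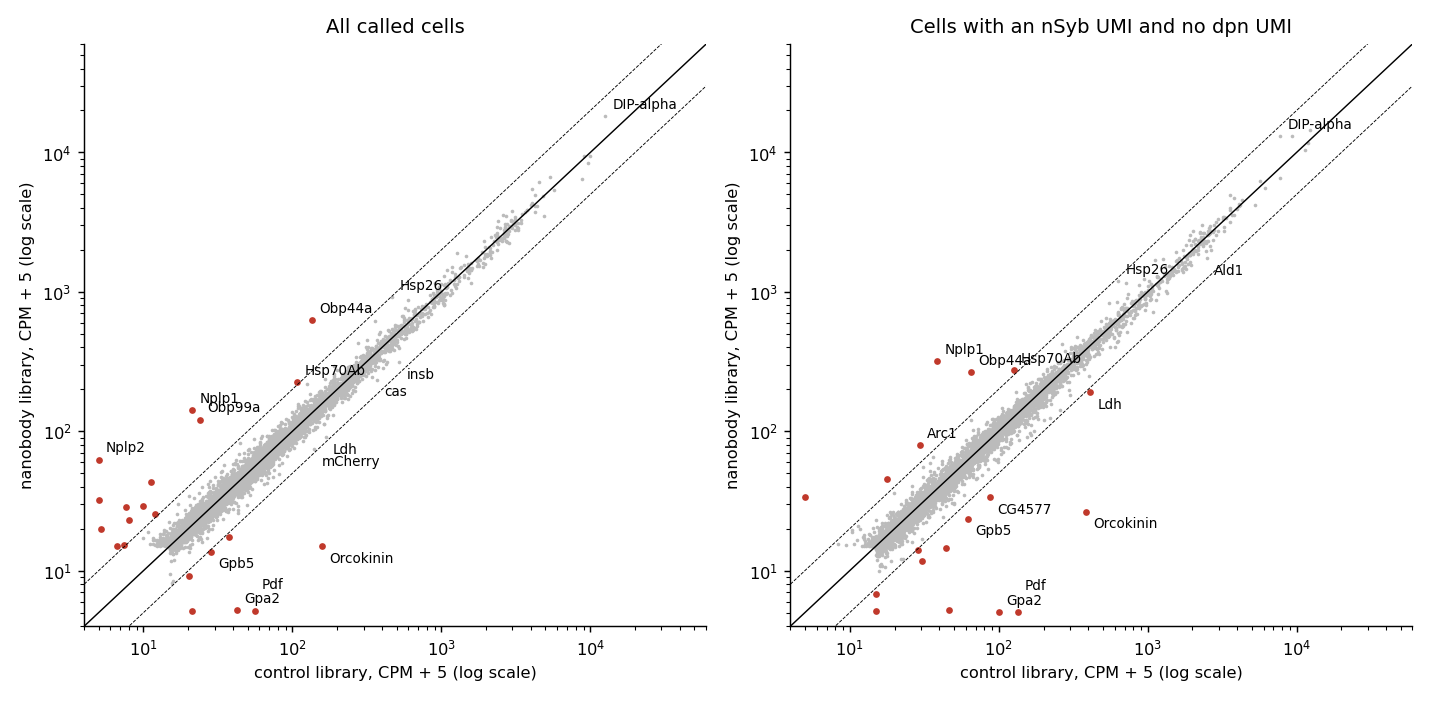
Level of each gene with at least 10 CPM in 1 library, as CPM plus 5 on log axes, control on the horizontal and nanobody on the vertical axis, for all called cells (left) and for cells with an nSyb UMI and no dpn UMI (right). The solid line marks equal levels and the dashed lines a 2-fold difference, and genes past it are red. Most genes lie along the solid line, and Pdf, Orcokinin, Nplp1 and Obp44a are among the few far from it.

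The transcripts farthest from equality were those of genes named as neuropeptide or neuropeptide-like and of 2 odorant-binding proteins. Higher in the nanobody library were Nplp2, Nplp1, Obp99a, Obp44a and Hsp70Ab. Lower were Pdf and Orcokinin. Of these, Obp44a, Obp99a and Hsp70Ab were still past 2-fold without the 10 cells highest for each gene, at log2 ratios of 2.93, 3.27 and 1.08, and the others were not.

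Pdf encodes pigment-dispersing factor, the clock and ventral-ganglion neuropeptide (3R:26455462-26456141, minus strand, on assembly BDGP6.54). It stood at 50.7 CPM in control (interval 49.4 to 52.1) and at 0.150 in nanobody (0.0872 to 0.240), and at 0.283 in mud. A single control cell held 5438 of the 5507 control UMIs of Pdf, so most of the difference lay in that cell. The same cell held 1733 UMIs of Ilp7, which encodes an insulin-like peptide, and 1348 of Proc, which encodes proctolin. Without the 10 cells highest for each gene, no gene was at least 2-fold lower in the nanobody library over all called cells.

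Orcokinin encodes a neuropeptide precursor (2R:23946959-23949076, minus strand). Its level was 153 CPM in control, 9.93 in nanobody and 4.79 in mud, a level 15.4-fold lower in nanobody than in control (14.5 to 16.4). Each of these 2 libraries had 5 cells with at least 10 Orcokinin UMIs, and the 10 highest cells held 96.2% and 91.1% of its UMIs. Without those cells the log2 ratio was -0.87, against -3.40 with them. The glycoprotein hormone subunit genes Gpa2 and Gpb5 showed the same kind of concentration. Gpa2 stood at 37.5 CPM in control, 0.211 in nanobody and 47.2 in mud. Only 3 control cells and no nanobody cell had at least 10 UMIs of it, and the same 3 control cells were those with at least 10 UMIs of Gpb5.

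Nplp1 and Nplp2 were on the other side. Nplp1 encodes a neuropeptide-like precursor (2R:25032377-25040377, plus strand) and stood at 16.2 CPM in control, 137 in nanobody and 319 in mud. Its 10 highest cells held 13.6% of the UMIs in control and 88.8% in nanobody, where 1 cell had 5476, and without those 10 cells the log2 ratio was 0.10, against 2.74 with them. Nplp2 (3L:13356376-13357223, plus strand) had 0 UMIs in the called control cells, and stood at 57.5 CPM in nanobody and 61.7 in mud, which is at least 2081-fold higher in nanobody against a floor of 3 counts in the control library. There were 7 nanobody cells with at least 10 Nplp2 UMIs, and all 7 also had at least 3 UMIs of the hemocyte (blood cell) marker list. Cells with 3 such UMIs numbered 16 in control and 43 in nanobody. The defining hemocyte gene Hml stood at 0.175 and 1.58 CPM, and the summed level of the 10 hemocyte genes was 25.8 and 37.4 CPM. Without the 151 control and 167 nanobody cells that had a repo (glial) UMI or 3 hemocyte UMIs, 4 genes were at least 2-fold higher and 2 lower over all cells, and 4 and 6 among neurons. The log2 ratio was then 0.25 for Nplp2, 2.25 for Obp44a, 2.02 for Obp99a and 1.26 for apolpp, and the medians were 0.47 for heat shock and -0.31 for glycolytic genes over all cells.

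Of 31 neuropeptide genes in the list, 9 reached 10 CPM in 1 of the 2 libraries over all cells and 9 among neurons. Across all genes at 10 CPM, 4.27% were at least 25% higher and 2.93% at least 20% lower on CPM plus 5, the same factor in each direction and the margins for every list. Of the 9 neuropeptide genes, 2 were higher and 6 lower by that margin. Their median log2 ratio was -0.66, also with Nplp2 at its bound. It was -0.26 without the 10 highest cells of each gene, -0.27 with the highest doublet scores removed and -0.10 with each cell thinned to 1000 UMIs. Over all neuropeptide genes with no minimum level it was -0.014. The 5 CPM added pulls that value toward 0, since most of the 31 genes did not reach 10 CPM. The summed level of the listed genes went the other way, at 293 CPM in control and 332 in nanobody. Nplp2, whose high cells carried hemocyte UMIs, gave 57.5 CPM of the nanobody sum and none of the control sum. Among neurons, where the background was 3.1% higher and 4.33% lower, 1 neuropeptide gene was higher and 8 were lower, with a median of -1.40. That median was -0.43 without the 10 highest cells and -0.030 with no minimum level, under the same limit. The summed level in neurons was also lower in nanobody, at 696 CPM in control and 603 in nanobody. The pair given next, picked after its values were seen, lay in more cells than Pdf or Orcokinin. sNPF, short neuropeptide F, stood at 203 CPM in control and 146 in nanobody neurons and had at least 10 UMIs in 180 control and 143 nanobody cells. Dh31, a diuretic hormone, stood at 160 and 88.8 CPM in neurons, with at least 10 UMIs in 39 and 35 cells.

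**Figure D2:**
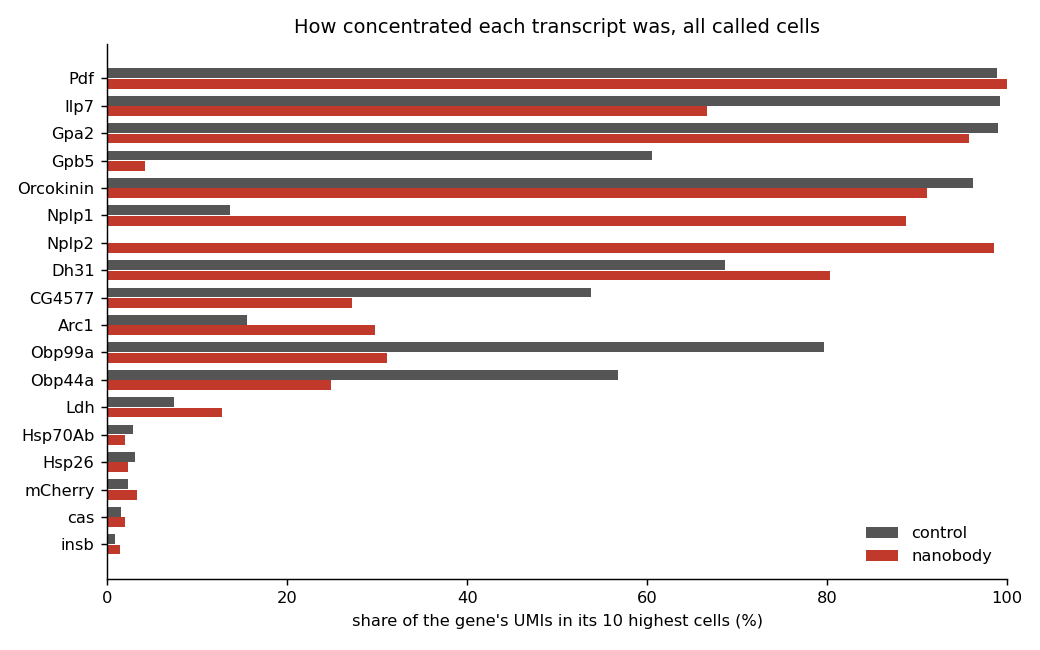
Share of each transcript's UMIs, in percent, that lay in its 10 highest cells, for the control (grey) and nanobody (red) libraries over all called cells. Peptide genes at the top lie mostly above 50%, while Hsp26, mCherry, cas and insb at the bottom lie below 5% in both libraries.

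A pair of odorant-binding protein genes, small secreted ligand carriers, were higher in nanobody, also without the 10 highest cells of each. Obp44a (2R:8134170-8135315, minus strand), which is abundant in glia of the fly brain, stood at 131 CPM in control (129 to 133), 620 in nanobody (615 to 624) and 497 in mud. This is 4.73-fold higher in nanobody than in control (4.64 to 4.81). Cells with at least 10 Obp44a UMIs numbered 68 of 14852 in control and 220 of 14415 in nanobody. The 10 highest cells held 56.8% of the Obp44a UMIs in control and 24.8% in nanobody. Leaving them out therefore raised the Obp44a ratio and could not have lowered it. Obp99a (3R:29671657-29672334, plus strand) stood at 18.9, 116 and 83.5 CPM in control, nanobody and mud, 6.16-fold higher in nanobody than in control (5.88 to 6.46). All 20 control cells with at least 10 Obp99a UMIs also had at least 10 of Obp44a. These were the only 2 of 51 odorant-binding protein genes that reached 10 CPM.

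The higher level of Obp44a was seen in every gate. It was 60.3 against 261 CPM in neurons, 189 against 1025 in cells with neither nSyb nor dpn, and 23.7 against 99.8 in dpn cells. Barcodes of 20 to 200 UMIs, too small to be cells, carried Obp44a at 525 CPM in control and 1856 in nanobody. Of 2888 genes at 50 CPM in those barcodes, 12 (0.416%) were at least 2-fold higher in nanobody and 1 (0.0346%), Orcokinin, was at least 2-fold lower. The Obp44a level in those barcodes moved with the cell sums, and its part in them was not tested. Glial genes did not share one direction. Over all called cells 5 of 13 glial genes reached 10 CPM, 1 (Obp44a) was at least 25% higher and 2 were lower, with a median of -0.18. It was 1.01 over the few at 200 CPM, Obp44a among them. In cells with neither nSyb nor dpn, 7 reached 10 CPM. There 3 were at least 25% higher, namely Obp44a, wrapper at 1.31 and 15.1 CPM and the glutamine synthetase gene Gs2 at 17.9 and 23.9. The 2 lower were the glutamate transporter gene Eaat1 at 145 and 111 CPM and gcm at 26.3 and 15.7, and the median was -0.10. The defining glial transcription factor gene repo stood at 3.44 and 2.19 CPM, the astrocyte gene alrm at 9.71 and 8.27, and moody of the blood-brain barrier at 1.43 and 0.934. The cortex glia gene wrapper stood at 0.903 and 8.97 CPM. The summed glial level was 581 CPM in control and 1005 in nanobody, and Obp44a alone differed by more than these sums did. The lipoprotein gene apolpp, of the fat body list, stood at 4.87 CPM in control, 23.9 in nanobody and 19.2 in mud, and 2 of the 3 fat body genes at 10 CPM were at least 25% higher, with a median of 0.52. The 1 muscle gene at 10 CPM was bt, with 21.9 and 22.4 CPM.

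**Figure D3:**
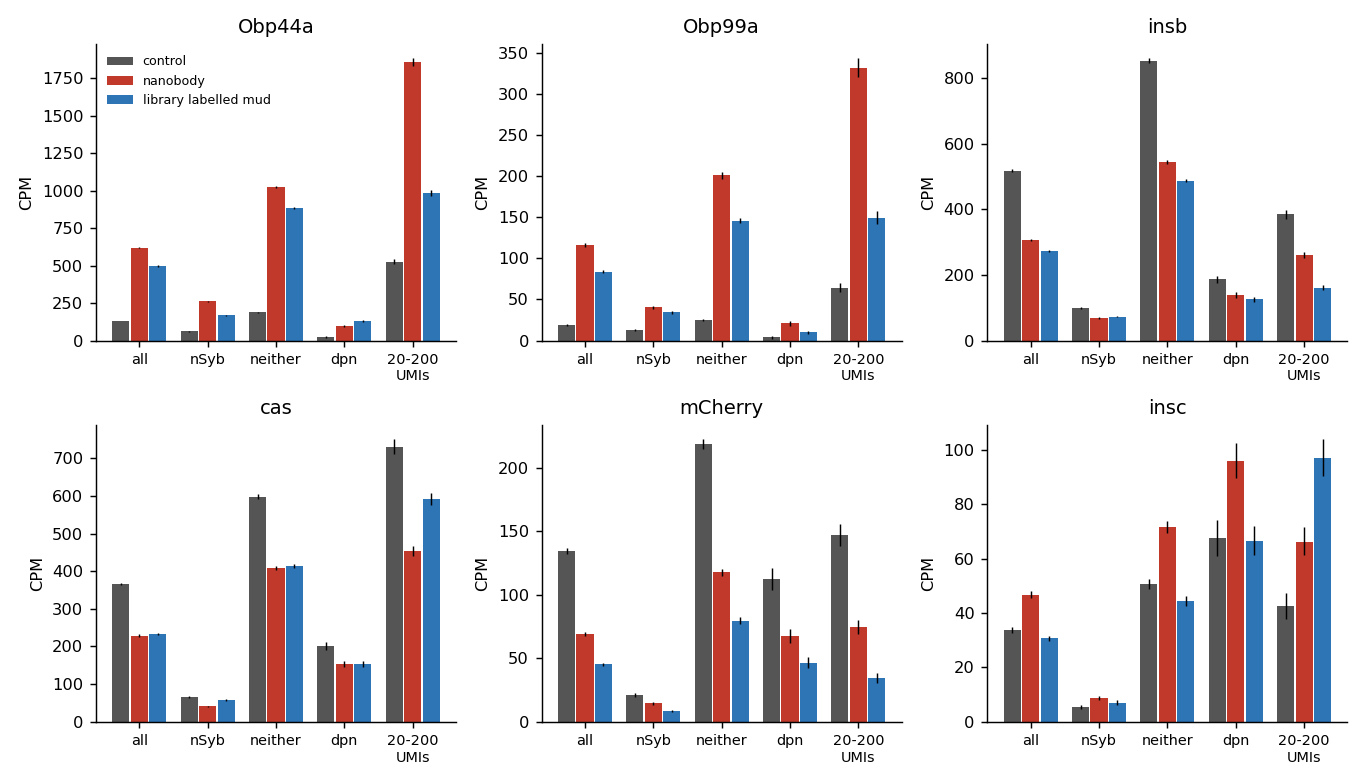
CPM of 6 genes in the control (grey), nanobody (red) and mud (blue) libraries, for all called cells, cells with nSyb and no dpn, cells with neither, cells with dpn and no nSyb, and barcodes of 20 to 200 UMIs. Error bars are exact 95% Poisson intervals of the UMI sums, which cover counting error only. Obp44a and Obp99a are higher in nanobody than in control in all 5 sets, and insb, cas and mCherry are lower in all 5.

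Of the engineered genes mCherry differed most. Its log2 ratio, -0.91, ranked 3 among the lowest over all called cells, and it lay between -0.95 and -0.79 under the other settings. The gene insc, which encodes Inscuteable (2R:20821262-20836028, minus strand), stood at 33.9 CPM in control, 46.7 in nanobody and 30.7 in mud, 1.38-fold higher in nanobody (1.32 to 1.44). Rok, the gene of that kinase (X:16624012-16637414, minus strand), stood at 109 CPM in control, 141 in nanobody and 140 in mud. On their strands insc overlaps sktl and Rok overlaps CG9777, both protein-coding. UMIs from the transgene and from the endogenous genes could not be told apart. sqh, the myosin regulatory light chain gene, stood at 67.9 and 69.4 CPM, and GFP at 5.58 and 5.18. mCherry, expressed from the worGal4 driver, stood at 135 CPM in control (132 to 137), 69.3 in nanobody (67.7 to 70.8) and 45.3 in mud. Among dpn cells it was 112 against 67.7 CPM, and among neurons 21.1 against 14.5. The driver's own gene worniu (wor) stood at 139 and 112 CPM over all cells, a log2 ratio of -0.30, and at 450 and 398 among dpn cells. Of the 5 engineered and tagged genes at 10 CPM, 2 were higher and 1 lower by the margins above, with a median of 0.03.

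Members of the machinery that the fusion was built from were otherwise near equality. Of 28 genes of the Rok pathway and the actomyosin cortex, 1 (Rok) was at least 25% higher and 2 (pav, a cytokinesis kinesin, and the myosin light chain kinase gene Strn-Mlck) were lower, with a median of 0.01. The actin gene Act5C stood at 4247 and 4936 CPM, the profilin gene chic at 2725 and 2313, and the cofilin gene tsr at 2371 and 2657. Of 14 apical polarity and spindle genes 1 (insc) was higher and none lower, with a median of 0.04. Cdc42, the small GTPase of the apical complex, stood at 389 and 365 CPM. Of 6 basal determinants 1 was higher and none lower, with a median of 0.01. That 1 was pros, which encodes the homeodomain factor Prospero and promotes differentiation of the GMC (3R:11328480-11407627, plus strand), at 5340 CPM in control, 6695 in nanobody and 4194 in mud. brat stood at 2322 and 2487 CPM and numb at 238 and 225.

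Neuroblast markers did not share a direction. dpn, a bHLH repressor of neuroblasts, stood at 18.8 CPM in control and 25.0 in nanobody. After every cell was thinned to 1000 UMIs, 0.956% of control cells (0.806 to 1.13) and 1.92% of nanobody cells (1.70 to 2.16) had a dpn UMI, against 3.08% and 5.92% before thinning. Among thinned cells with an nSyb UMI, which as neurons should lack dpn, the shares were 0.164% (0.0447 to 0.420) and 0.350% (0.151 to 0.689). The level of mira, the adaptor that carries Prospero, was 91.6 and 107 CPM. The proneural gene ase was at 190 and 166, and wor was lower as given above. Of 13 neuroblast identity genes 1 was at least 25% higher and 2 lower, with a median of 0.09. The temporal factor gene cas, castor (3R:5712975-5716805, minus strand), stood at 366 CPM in control, 229 in nanobody and 233 in mud, and was lower in each gate. Of 9 temporal genes 1 was higher and 1 lower, with a median of 0.09. chinmo, which marks early-born neurons, stood at 2344 and 1990 CPM and Syp, which marks the late window, at 955 and 1074.

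Among the genes of GMCs and newborn neurons, insb and nerfin-1 stood lower in nanobody. insb, insensible, a corepressor of Notch signalling in neural cells (2R:17475214-17476272, minus strand), stood at 518 CPM in control (513 to 522), 306 in nanobody (303 to 310) and 272 in mud. Cells with at least 10 insb UMIs numbered 2036 and 1130. nerfin-1, which keeps neurons from dedifferentiating, stood at 1042 and 798 CPM. Over the 10 genes of the list 1 was at least 25% higher and 2 were lower, with a median of -0.23, and 7 lay below 0. The summed level of the list went the other way, at 16770 CPM in control and 17612 in nanobody, and at a minimum of 200 CPM the median was -0.0007. The Hox list, whose genes give segment identity, was below 0 in all 6 tested members, with 3 at least 20% lower and a median of -0.33. Antp (3R:6896253-6999228, minus strand) stood at 417 CPM in control, 298 in nanobody and 317 in mud, and tsh, the trunk gene of the same list, at 211, 157 and 151. In dpn cells the order of both was the opposite, with Antp at 38.9 and 86.8 CPM and tsh at 21 and 40.8. The homeobox gene hth stood at 1583, 1145 and 1092 CPM and led the 2 lower of 10 genes of the epithelium and optic lobe list, whose median was -0.13. vg, which encodes the transcription cofactor Vestigial, stood at 68.6 and 42.0 CPM. Pex7, a peroxisomal import receptor gene, stood at 76.7 and 44.2, and CG43066 at 159 and 107.

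Heat shock genes were higher as a group. Over all called cells 10 of 14 were at least 25% higher and none lower, against 4.27% and 2.93% of all genes at 10 CPM. The median was 0.47, and all 14 lay above 0. The 14 included near-identical Hsp70 copies, so these counts and medians are not over separate measurements. In neurons the counts were again 10 of 14 and none, with a median of 0.36. Hsp26, a small heat shock chaperone (3L:9376418-9377427, minus strand), stood at 465 CPM in control (461 to 469), 913 in nanobody (908 to 919) and 1005 in mud. Cells with at least 10 Hsp26 UMIs numbered 1236 in control and 3201 in nanobody, so its level was not held by a few cells. Hsp23 stood at 356 and 616 CPM and Hsp27, the most abundant of the group, at 2726 and 3467. The Hsp90 gene Hsp83 stood at 904 and 1143.

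The 6 near-identical Hsp70 copies, the main stress-induced chaperones, cannot be assigned reads singly with certainty, so their sum is the safer value. It was 206 CPM in control (204 to 209), 393 in nanobody (389 to 397) and 668 in mud. Hsp70Ab, the copy past 2-fold, stood at 103, 222 and 508 CPM. The sum of the 6 small heat shock genes was 3915 CPM in control and 5517 in nanobody. In dpn cells that sum was nearly level, at 3780 (3730 to 3829) and 3839 (3799 to 3880) CPM, while the Hsp70 sum was still higher, at 97.0 and 204. In barcodes of 20 to 200 UMIs the small heat shock sum was 3143 and 4718 CPM and the Hsp70 sum 151 and 322. Stress during dissociation was not measured separately, and its part was not tested.

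Glycolytic enzymes were lower in nanobody neurons. Among neurons 11 of 12 were at least 20% lower and none higher, with a median of -0.55. The summed level was 6119 CPM in control, 4120 in nanobody and 5453 in mud. Ldh, which encodes lactate dehydrogenase at the end of the pathway (3L:6259105-6262694, minus strand), stood at 407 CPM in control neurons (401 to 413), 185 in nanobody (181 to 189) and 290 in mud. It was the 1 member past 2-fold, 2.2-fold lower (2.14 to 2.26). The aldolase gene Ald1 (3R:26254069-26261591, minus strand) stood at 2482, 1730 and 2211 CPM. The phosphoglycerate mutase gene Pglym78 stood at 251, 137 and 224, and the enolase gene Eno at 727, 508 and 609. Over all called cells the list had 6 lower, none higher and a median of -0.29.

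The direction was the other in cells with neither nSyb nor dpn. There 6 of 12 glycolytic genes were at least 25% higher and none lower, with a median of 0.33, against a background of 7.24% higher and 2.99% lower. At 50 CPM, 8 genes (0.287%) were at least 2-fold higher in those cells and none (0%) 2-fold lower. Their summed level in those cells was much smaller, 780 CPM in control and 923 in nanobody. Ldh stood there at 5.0 and 12.4 CPM. Over all called cells, cells with at least 10 Ldh UMIs numbered 386 in control and 259 in nanobody. nSyb, the gene of the gate, was itself at 803 and 642 CPM within the gated neurons. That level is set in part by the gate, and its part in the glycolytic difference was not tested. With a gate of at least 5 nSyb UMIs, an alternative added after seeing the data, the median over the glycolytic genes was -0.65.

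**Figure D4:**
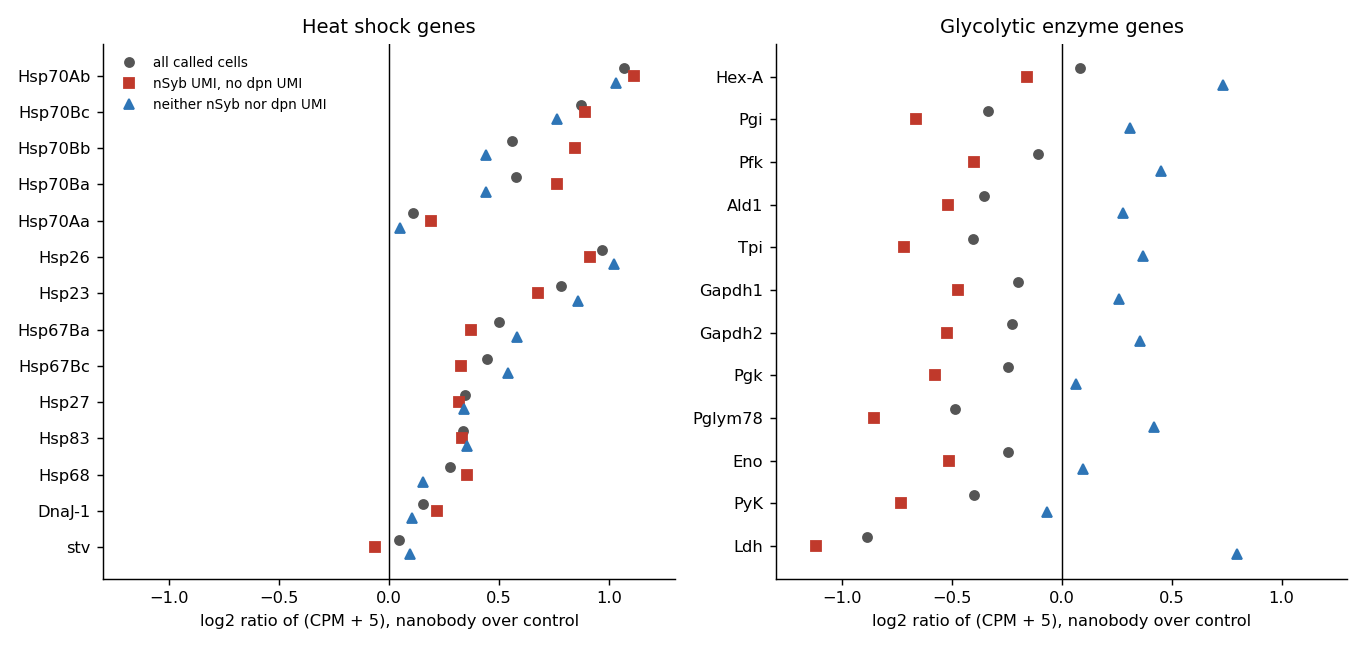
Log2 ratio of CPM plus 5, nanobody over control, for 14 heat shock genes (left) and 12 glycolytic enzyme genes (right), in all called cells (grey circles), neurons by the nSyb gate (red squares) and cells with neither nSyb nor dpn (blue triangles). The vertical line marks equality. Heat shock genes lie at or to the right of it in nearly every set, and glycolytic genes lie to its left in neurons and mostly to its right in cells with neither gene.

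Several other genes differed among neurons. Arc1, which encodes a capsid-forming protein that moves RNA between cells (2R:14357927-14360297, minus strand), stood at 24.6 CPM in control, 74.8 in nanobody and 36.1 in mud neurons, 3.05-fold higher in nanobody than in control (2.84 to 3.27). A nanobody cell held 553 of its UMIs, and its 10 highest cells held 15.6% of its UMIs in control and 29.7% in nanobody over all cells. Without its 10 highest cells the log2 ratio in neurons was 0.84, against 1.43 with them. The cytochrome c gene Cyt-c-p stood at 217 and 120 CPM, the calcium-binding protein gene Cbp53E at 150 and 85.5, and the splicing factor gene ps at 168 and 94.9. CG4577 stood at 81.9 and 28.5 CPM with mud at 145, Stacl at 157 and 91.7, and the Hox gene Abd-B at 53.6 and 29.9. Higher in nanobody were CG12643, at 262 and 414 CPM, CG34377, at 29.4 and 54.3, the metallothionein gene MtnF, at 125 and 186, and the ecdysone-induced factor gene Eip74EF, at 26.0 and 50.6.

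The gene DIP-alpha, which encodes an immunoglobulin cell surface protein of synaptic matching, was assigned some of the highest counts of the data. It stood at 12636 CPM in control, 18278 in nanobody and 42651 in mud, and at 7794, 13039 and 30576 among neurons. Its position (X:3507245-3571649, minus strand) overlaps the protein-coding gene CG2875 and the non-coding gene lncRNA:CR34335 on the same strand, so reads of these cannot be told apart in these counts. In barcodes of 20 to 200 UMIs it was level, at 18130 and 17983 CPM. Of 26 DIP and dpr genes, 6 were at least 25% higher and none lower, with a median of 0.08, and dpr21 stood at 106 and 147 CPM. Among neurons 3 of 28 were higher and 5 lower, with a median of -0.07.

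Synaptic and excitability genes were near equality over all cells, with 1 of 20 higher, 1 lower and a median of 0.02. Among neurons none was higher and 4 were lower, with a median of -0.12. unc-13, a vesicle priming gene, stood at 1165 and 1283 CPM in neurons and the sodium pump gene nrv3 at 2341 and 2167. The 4 lower members, named after their values were seen, were the sodium channel gene para, at 293 and 194 CPM, Rbp, at 170 and 122, Syx1A, at 635 and 489, and futsch, at 488 and 384. Of 7 transmitter identity genes in neurons 1 was higher and 1 lower, with a median of -0.17. VAChT stood at 327 and 268 CPM, Gad1 at 116 and 83.4 and VGlut at 264 and 276. The nicotinic receptor list had none higher and 1 of 9 lower in neurons, with a median of -0.18.

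Cell cycle genes were close to equality. Of 18 S phase genes 1 was at least 25% higher and none lower, with a median of 0.10, and PCNA stood at 134 and 152 CPM. The 1 was CycE, cyclin E, at 88.9 and 116. Of 22 G2/M genes none was higher and 1 (pav) was lower, with a median of 0.03, and Cdk1 stood at 184 and 148 CPM. None of 8 cell cycle exit genes passed in either direction, with a median of 0.01, and dap, the p27 homolog, stood at 552 and 454 CPM. Of 13 growth and nucleolar genes 2 were lower and none higher, with a median of -0.18. Nop56 stood at 298 and 247 CPM and Nop60B at 266 and 216. The Notch pathway had none of 13 higher and 1 lower, the ligand gene Dl at 245 and 184 CPM, with a median of -0.05.

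Genes of translation and respiration were close to equality, with exceptions. Of 83 cytoplasmic ribosomal protein genes 4 were higher and none lower, with a median of -0.03, and 2 of the 4 were RpL39, at 1259 and 1892 CPM (mud 3003), and RpL41, at 4076 and 5434 (mud 7258). Of 72 mitochondrial ribosomal protein genes 2 were higher and 1 lower, with a median of 0.02. Of 62 nuclear genes of oxidative phosphorylation 1 was higher and 2 lower, with a median of -0.04. Of the 13 mitochondrially encoded genes 4 were higher and none lower, with a median of 0.16. mt:CoI, the catalytic subunit of cytochrome oxidase, stood at 2585 CPM in control, 3552 in nanobody and 2942 in mud. Their sum, 11616 and 14370.4 CPM, moved with the median mitochondrial share given above, and a part played by cell quality was not tested.

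Stress and hormone lists were small. Of 9 genes of the Xrp1, JNK and cell death list 4 were at least 25% higher and none lower, with a median of 0.30. That median was 0.14 at its lowest under the other settings. Among neurons 1 of 9 was higher and none lower, with a median of 0.08. The highest log2 ratio of the list over all called cells, 0.65, was also the highest of the glutathione S-transferase list below. The death genes skl and grim stood at 120 and 158 CPM and at 93.9 and 121. GstD1, a glutathione S-transferase induced by oxidative stress (3R:12367817-12369268, minus strand), stood at 38.8 CPM in control, 63.7 in nanobody and 90.0 in mud. It was level among neurons, at 16.8 and 15.3 CPM, and higher in cells with neither nSyb nor dpn, at 36.6 and 83.0. Xrp1 itself stood at 126 and 110. Of 6 glutathione S-transferase genes 4 were higher and none lower, with a median of 0.38, while their summed level was 1114 CPM in control and 1063 in nanobody. The median was 0.10 without cells with a repo UMI or 3 hemocyte UMIs and 0.14 without the 10 highest cells of each gene. At a minimum of 200 CPM, where few members remained, it was -0.15, the lowest ratio of the list. Among neurons none of 3 passed, with a median of -0.10. Of 11 ecdysone response genes 2 were higher and 2 lower, with a median of 0.08, and EcR, the hormone receptor gene, stood at 208 and 211 CPM. Of 3 immediate early genes 1 was lower, with a median of 0.02. Immune effector genes and cytochrome P450 genes had no member at 10 CPM over all cells.

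Lineage and dosage lists closed near 0. Of 10 type II lineage genes 1 was higher and 1 lower, with a median of 0.03, and opa stood at 103 and 118 CPM. None of 9 dosage compensation and sex genes passed either margin, with a median of 0.00, and Sxl stood at 347 and 364 CPM.

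**Figure D5:**
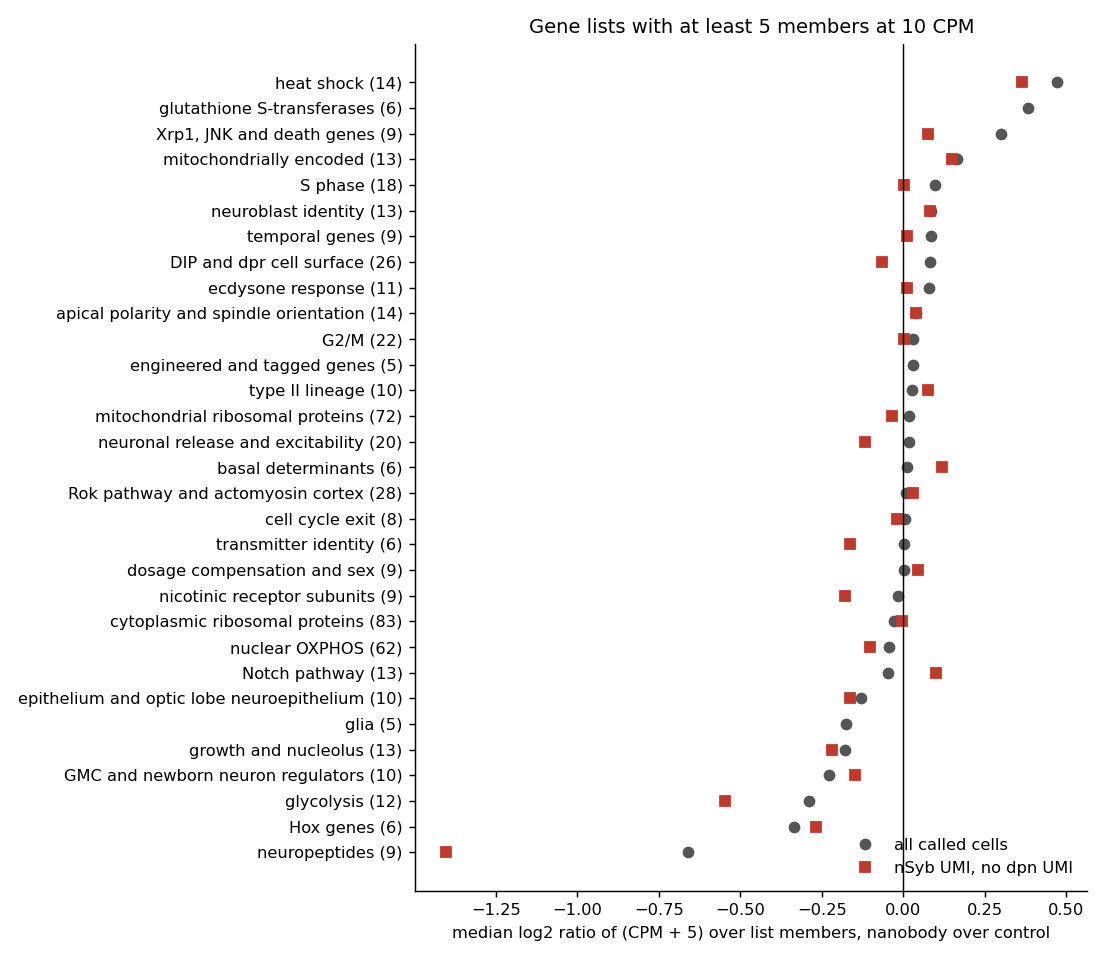
Median log2 ratio of CPM plus 5, nanobody over control, over the members of each gene list with at least 5 members at 10 CPM over all called cells (grey circles), with the same in neurons (red squares) where at least 5 members passed. The number in brackets is the members over all called cells. The heat shock list lies highest at 0.47, and the neuropeptide list lowest at -0.66 and -1.40 with these margins. Without the 10 highest cells of each gene its medians were -0.26 and -0.43, and that of the Hox list over all called cells was -0.36.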

How the data were processed

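The authors deposited unfiltered matrices of UMI counts, whole numbers for each gene in each barcode, without normalization; per the file headers they were written by Cell Ranger 9.0.1. The submitters' processing notes name Cell Ranger and Seurat. The genome build, the annotation and the use of intronic reads are not given in the sources used here. Coordinates come from Ensembl release 115 (BDGP6.54), which matched 13976 of 13988 features, and the authors' build may differ.

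Cells were called and UMIs summed as described in the report, with Python 3.11.15, numpy 2.4.6, scipy 1.17.1 and pandas 2.3.3. Log2 ratios were taken on CPM plus 5. With 1 library per genotype no test was made, and a gene counted as differing at 2-fold on that scale and at least 50 CPM in 1 of the 2 libraries. For gene lists the margins were 10 CPM and a level 25% higher or 20% lower (the same factor) on that scale. Doublets were not removed. An alternative removed the highest scores, 882 control and 831 nanobody cells.

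The comparison, the 38 gene lists and the settings were chosen with earlier results of these data known. Genes were named as the 12 highest and 12 lowest ratios in each population, list members past 2-fold or otherwise the 4 most abundant of a list, and the engineered genes. The cytochrome P450 list was corrected after seeing the data, because its first pattern also took cyclophilin genes.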

Additional observations from a re-analysis of the deposited data

Results flagged for a closer look

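Barcodes of 20 to 200 UMIs are outside the called cells and enter none of their sums, counts or list medians. Of 177 named genes, many of them named for their ratio in the cell sums, 131 reached 50 CPM in these barcodes. At least 2-fold higher in nanobody, on CPM plus 5, were 7 of them, and 1 was at least 2-fold lower, against 0.416% and 0.0346% of all genes at 50 CPM there. Obp44a stood there at 1856 CPM in nanobody and 524.7 in control, and Obp99a at 331.6 and 64.4. Hsp26 stood at 735.4 and 320, Hsp70Ab at 175 and 80.07, and Hsp70Bc at 55.58 and 19.95. Nplp1 stood at 79.35 and 21.83 and apolpp at 76.07 and 12.99. These sums rest on 127474 nanobody and 123772 control barcodes, and no explanation was tested. Orcokinin was the one lower, at 70.6 CPM in nanobody and 549.8 in control.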

How the results depend on the processing

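Each count at 2-fold was recomputed under other settings, 1 at a time. Over all called cells, the main counts of 5 higher and 2 lower became 18 and 7 with no minimum level, 14 and 7 at 10 CPM, 2 and 0 at 200 CPM, 15 and 10 at a 1.5-fold threshold, and 3 and 0 without the 10 cells highest for each gene, a count added after seeing the data. The lower count was 1 with the highest doublet scores removed, 0 with the mean of each cell's CPM and 0 with each cell thinned to 1000 UMIs. Among neurons, the main 4 higher and 6 lower became 10 and 13 with no minimum level, 15 and 26 at 1.5-fold, and 2 and 1 without the 10 highest cells. The lower count was 12 at 10 CPM, 2 at 200 CPM, 2 with the mean of each cell's CPM and 1 after thinning. In cells with neither nSyb nor dpn, set against neurons after seeing the data, 8 genes were higher and 0 lower.

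In the same cells, 18 of 157 named genes over all cells and 29 of 155 among neurons changed sign under at least 1 setting, as did 17 of 36 list medians over all cells and 19 of 37 among neurons. In cells with neither nSyb nor dpn, 39 named genes and 17 list medians had the other sign than in neurons. Of genes past 2-fold and list medians past 0.25, these turned. Proc turned to 0.35 over all cells and 0.50 in neurons, and Ilp7 to 0.0115 in neurons, with doublet scores removed. Without the 10 highest cells Proc stood at 0.0386 over all cells and 0.0477 in neurons, and Gs2 at 0.058. Gs2 also stood at 0.038 without cells with a repo UMI or 3 hemocyte UMIs, and at 0.14 in cells with at least 5 nSyb UMIs. At 200 CPM few members of the next lists remained, so their medians do not stand for the lists. The glutathione S-transferase median, -0.15, was the lowest ratio of that list. The glia median in neurons, 2.03, was the highest ratio of its list, that of Obp44a. The neuropeptide median in neurons was 1.29. In cells with neither nSyb nor dpn, Gs2 stood at 0.34, Ldh at 0.80 and Proc at 0.0178, and the medians of neuropeptides and glycolysis were 2.18 and 0.33. The cause was not tested.

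TMM and median-of-ratios scaling shifted all log2 ratios by -0.03 and -0.02 over all cells and by 0.02 and 0.02 among neurons. No paired analysis was possible because each genotype has 1 library. The settings based on roX1 and roX2 were not run, since neither is in the feature list. Counting error is small at this depth for genes at 50 CPM. The intervals cover it alone and not the sampling of cells, animals, dissections or library preparation.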
